A study of Mus musculus with 12 samples.

Results

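The genes described here are the cathepsins, the subunits of the lysosomal proton pump, the lysosome-associated membrane proteins and the 3 transcription factors Tfeb, Tfe3 and Mitf. They were taken by gene symbol, whatever their level: symbols that begin with Atp6v0 or Atp6v1, symbols made of Cts and a suffix of letters or digits, Lamp1 to Lamp3, and the 3 factors. This gave 54 of the 55487 gene models in the table, namely 11 of the V0 sector, 14 of the V1 sector, 23 cathepsins, 3 Lamp genes and 3 factors. The sectors were assigned by symbol alone, so the V0 genes include the pseudogenes Atp6v0c-ps1 and Atp6v0c-ps2. RNA with a poly(A) tail was sequenced from bone marrow-derived macrophages (BMDMs), which are macrophages grown from marrow of the femur and tibia with L929 cell-conditioned medium as the source of growth factor. The mice were 8 to 12 weeks old and of strain C57BL/6, and the macrophages were either left untreated or exposed for 4 h to 100 ng/ml of lipopolysaccharide (LPS), the cell wall component of Escherichia coli that Toll-like receptor 4 recognises. The 4 groups were LPS-treated and untreated macrophages of Rasgef1b-fl/fl;CMVcre mice (KO) and LPS-treated and untreated macrophages of wildtype mice (WT), with 3 libraries each. In the KO mice, Cre recombinase under the CMV promoter, which is active in most tissues, removed part of Rasgef1b, which encodes a guanine nucleotide exchange factor of the Ras family, so the deletion was not limited to macrophages. The wildtype label names no floxed allele and no Cre. The paper states that wildtype mice came from an animal facility in Brazil, and that knock-out mice were generated at a facility in the USA. It does not describe the wildtype mice as littermates. The labels do not say whether libraries of 1 group came from separate mice, so the p-values measure the spread between these libraries.

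The lysosome is the acidic compartment in which macrophages degrade what they engulf. Its proton pump, the V-ATPase, has a V1 sector in the cytosol that hydrolyses ATP and a V0 sector in the membrane through which protons pass, and several of its subunits are made from alternative genes in different tissues. Cathepsins are the proteases of that compartment and work best at low pH, and Lamp1 and Lamp2 are abundant proteins of its limiting membrane. Tfeb, Tfe3 and Mitf are related helix-loop-helix factors that bind an E-box, a palindrome that is part of the CLEAR motif of many lysosomal promoters, and that enter the nucleus when mTORC1 activity is low.

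The sequences of promoters were searched for that E-box, since it is what ties the 3 factors to the other genes. RefSeq promoters of GRCm38.p6, from 250 bases before to 50 bases after a gene's start, were at hand for 42 of the 54 genes and for 24 of the 34 with enough reads to be tested. The core letters CACGTG were found in 9 of these 24 genes (37.5%), against 11.9% of the 9611 tested genes with a promoter and 8.09% of all 27025 genes with one. The longer form TCACGTGA, which contains the core, was found in 5 of the 24 genes (20.8%), against 2.28% of the tested genes and 1.12% of all genes. Since the E-box is known from many lysosomal promoters, a higher share among lysosomal genes is not an independent result. Both motifs are palindromes, so each match stands for both strands. The 5 genes with the longer form were Atp6v0d1, Atp6v0e, Atp6v1a, Ctsa and Ctsd. Their matches are printed 5′ to 3′ on the strand of the gene, with the 8 letters of the longer form in capitals.

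Ctsa, chr2:164833734-164833772, plus strand: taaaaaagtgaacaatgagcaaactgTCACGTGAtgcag
Ctsa, chr2:164833766-164833795, plus strand: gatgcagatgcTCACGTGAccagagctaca
Ctsd, chr7:142387893-142387952, minus strand: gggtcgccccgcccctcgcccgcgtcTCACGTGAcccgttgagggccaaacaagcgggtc
Atp6v0d1, chr8:105566050-105566079, minus strand: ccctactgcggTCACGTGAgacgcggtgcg
Atp6v0e, chr17:26676387-26676416, plus strand: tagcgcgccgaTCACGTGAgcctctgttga
Atp6v1a, chr16:44139358-44139417, minus strand: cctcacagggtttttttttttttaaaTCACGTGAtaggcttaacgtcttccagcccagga

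The core alone was present in Atp6v0b, Ctsf, Ctsl and Lamp1. None of these letters were in the windows of Tfeb, Mitf, Ctsc or Atp6v1e1. A match describes the sequence and not a bound site, and a window without one says nothing about binding.

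The libraries held 19316691 to 24977356 reads in genes, with a median of 20552126. Rasgef1b itself averaged 3862 ± 297 normalized counts in LPS-treated KO and 12084 ± 407 in LPS-treated WT macrophages, and 609 ± 77.4 in untreated KO and 2072 ± 88.2 in untreated WT macrophages (SD, n = 3 each), where a normalized count is the number of reads of a gene divided by the size factor of its library. Its reads cover the whole gene, including exons that the deletion leaves in place. Replicate 2 of the untreated KO macrophages stood apart in that 5.06% of its reads came from 1 ribosomal RNA gene, against 0.0398% to 0.0874% in the other 11 libraries. Without it, or without any other single library, the same genes of those described here were called after LPS. All 10 macrophage markers were detected, and their summed level was 297477 to 364337 in LPS-treated KO, 240174 to 296077 in untreated KO, 365586 to 420213 in LPS-treated WT and 284970 to 352059 in untreated WT libraries. The summed markers of granulocytes were at most 1257 and those of osteoclasts, which use many of the same genes to resorb bone, at most 5395 in any library. Over the 12 libraries the summed markers of dendritic cells, some of which macrophages also express, were 2403 to 5754, those of fibroblasts 11.9 to 112, those of lymphocytes and NK cells 25.9 to 87.5 and those of mast cells 0 to 13.9. Of the last 2 lists Cd3d, Ncr1, Nkg7, Fcer1a and Tpsb2 had 0 reads in all 12 libraries, while the other 11 of their 16 markers had reads in some. In bulk RNA of this kind, fewer cells that express a gene and less RNA per cell cannot be told apart.

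Of the 54 genes, 12 had no read in any library, which allows up to 3 reads of each per library, or up to 1.98 to 4.22 normalized counts. They were Atp6v0a4, Atp6v1b1, Atp6v1e2, Atp6v1fnb and the cathepsins Cts3, Cts6, Cts7, Cts8, Ctsj, Ctsll3, Ctsm and Ctsr, most of which are known from the placenta of rodents. Another 8 had a mean under 10 and were not tested, namely Atp6v0c-ps1, Atp6v0e2, Atp6v1c2, Atp6v1g3, Ctsg, Ctsq, Ctsw and Lamp3. Lamp3, a marker of mature dendritic cells, reached at most 1.4 normalized counts. The 34 genes that were tested in every comparison were 8 of V0, 9 of V1, 12 cathepsins, Lamp1, Lamp2 and the 3 factors. The pseudogene Atp6v0c-ps2 is among the 8 of V0.

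Per kilobase of exon, the scale on which genes can be compared, 3 cathepsins had the highest levels. Over the 12 libraries, the mean normalized count per kb was 53720 for Ctsb, a cysteine protease with both endopeptidase and peptidyl-dipeptidase activity, 47141 for Ctsd, the main aspartic protease of lysosomes, and 36048 for Ctss, a cysteine protease that trims the invariant chain in antigen-presenting cells. Ctsz, a carboxypeptidase, had 14558, Lamp1 had 12589 and Ctsl had 9826. All 54 genes together took 2.86% to 3.04% of the reads of LPS-treated KO libraries and 4.03% to 4.31% of those of untreated KO libraries, and 2.92% to 3.10% in LPS-treated against 4.32% to 4.44% in untreated WT libraries. On the normalized scale the order of the conditions was the opposite, with sums of 767665 to 821114 in LPS-treated and 663655 to 707908 in untreated KO libraries, and of 823773 to 844109 in LPS-treated and 714356 to 744251 in untreated WT libraries. The exons of Ctsb overlap those of Fdft1, those of Ctsd a gene model Gm49369, those of Ctsl an antisense gene and a pseudogene, those of Ctsa Neurl2 and Pltp, and those of Lamp1 Grtp1. The strand setting of the counting is not given in the sources used here, so reads of such pairs may be shared, and the same holds for Atp6v0c and its pseudogene Atp6v0c-ps2.

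The effect of LPS on these genes was tested within each genotype, on log2 of the normalized count plus 1, with limma and Benjamini-Hochberg adjustment over all genes tested. Tfeb had the largest change of the 34 genes. It fell in LPS-treated macrophages of both genotypes, Mitf rose, and Tfe3 was lower by a smaller amount. Tfeb had 84.7, 85.0 and 83.0 normalized counts in the 3 LPS-treated KO libraries, against 1005, 1108 and 1129 in the untreated ones. In WT macrophages it had 50.7, 47.8 and 82.1 after LPS, against 959.8, 967.7 and 963.0 without. All 6 LPS-treated libraries thus lay far below all 6 untreated ones, and among the LPS-treated WT libraries replicate 3 stood above the other two, near the KO level. The log2 fold change was -3.66 (SE 0.08, adjusted p = 4.24e-09) in KO and -4.02 (SE 0.18, adjusted p = 5.81e-08) in WT macrophages, a level 12.7-fold and 16.2-fold lower.

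Mitf, which is best known from melanocytes, mast cells and osteoclasts, moved the other way. It had 5043, 4690 and 4595 normalized counts in LPS-treated KO libraries, against 1892, 2248 and 2223 in untreated ones. In WT macrophages the values were 4429, 4532 and 4241 with LPS, against 1986, 1879 and 2085 without. The groups did not overlap in either genotype, and the spread within each was small beside the difference. Its log2 fold change was 1.17 (SE 0.08, adjusted p = 2.05e-06) in KO and 1.15 (SE 0.06, adjusted p = 1.05e-07) in WT macrophages. Tfe3 had 1655, 1583 and 1729 normalized counts in LPS-treated KO libraries, against 2417, 2358 and 2479 in untreated ones, and 1557, 1661 and 1842 in LPS-treated WT libraries, against 2462, 2300 and 2479 in untreated ones. Its highest LPS-treated library was below its lowest untreated one. The log2 fold change of Tfe3 was -0.55 in KO and -0.52 in WT macrophages, with adjusted p = 3.79e-05 and 0.000118. Under the other scalings it was -1.23 to -0.87 in KO and -1.24 to -0.84 in WT.

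**Figure D1:**
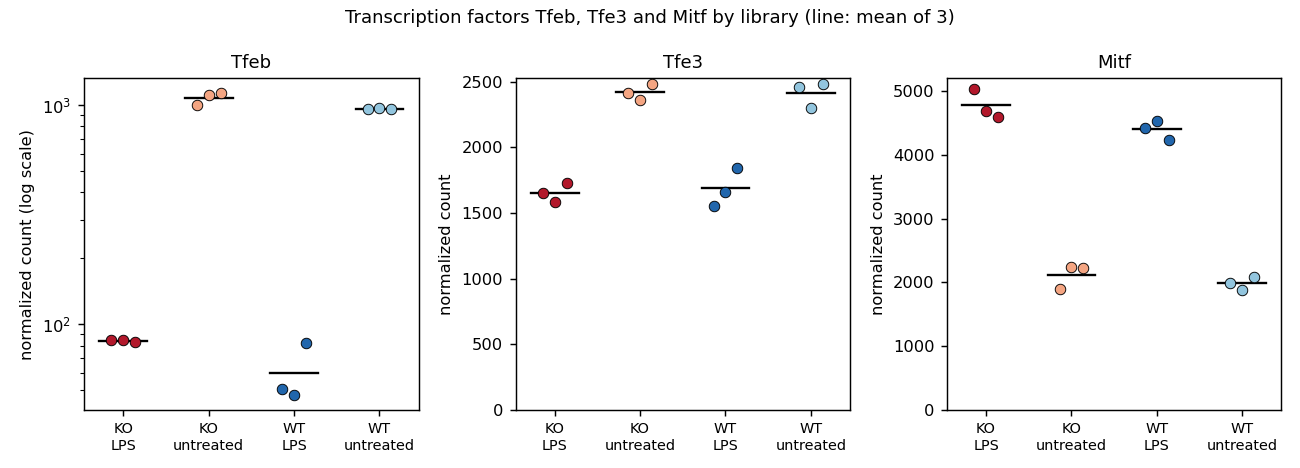
Normalized counts of Tfeb (left, log axis), Tfe3 (middle) and Mitf (right) in each of the 12 libraries, by group on the x axis, with a line at the mean of the 3 libraries. After LPS Tfeb lies at 47.8 to 85.0 against 959.8 to 1129 without, Tfe3 is lower and Mitf higher, with no overlap between conditions.

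The 3 factors were counted in the same libraries, so a factor that multiplies a whole library leaves the ratio of their levels per kb as it is, although quantile normalization, which does not work by such a factor, can alter it. The ratio of Tfeb to Mitf was 0.0184 to 0.0198 in LPS-treated KO libraries, against 0.539 to 0.581 in untreated ones, a 28.9-fold difference of means. In WT libraries it was 0.0115 to 0.0211 with LPS, against 0.505 to 0.563 without, a 35.3-fold difference. The ratio of Tfe3 to Mitf was 0.220 to 0.252 in LPS-treated against 0.702 to 0.855 in untreated KO libraries, and 0.235 to 0.291 in LPS-treated against 0.795 to 0.829 in untreated WT libraries. Mitf was thus the factor with the highest level per kb in all 12 libraries, and by a wider margin after LPS. These ratios are a description without a test.

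Few of the genes passed both an adjusted p under 0.05 and a change of at least 2-fold. In KO macrophages 3 of 34 genes (8.82%) were higher after LPS, Atp6v1e1, Ctsc and Mitf, and 1 (2.94%) was lower, Tfeb. Of all 12732 genes tested there, 17.3% were higher and 16.6% lower by that rule. The same 4 genes passed in WT macrophages in the same directions, where 17.1% of 12656 genes were higher and 16.9% lower. By adjusted p alone, 18 genes (52.9%) were higher and 6 (17.6%) lower in KO macrophages, against 36.3% and 35.7% of all genes. In WT macrophages 17 genes (50%) were higher and 6 (17.6%) lower, against 36.7% and 36.6% of all genes. The median log2 fold change of the 34 genes was 0.23 in KO and 0.21 in WT macrophages, while that of all genes tested was -0.01 and -0.02.

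**Figure D2:**
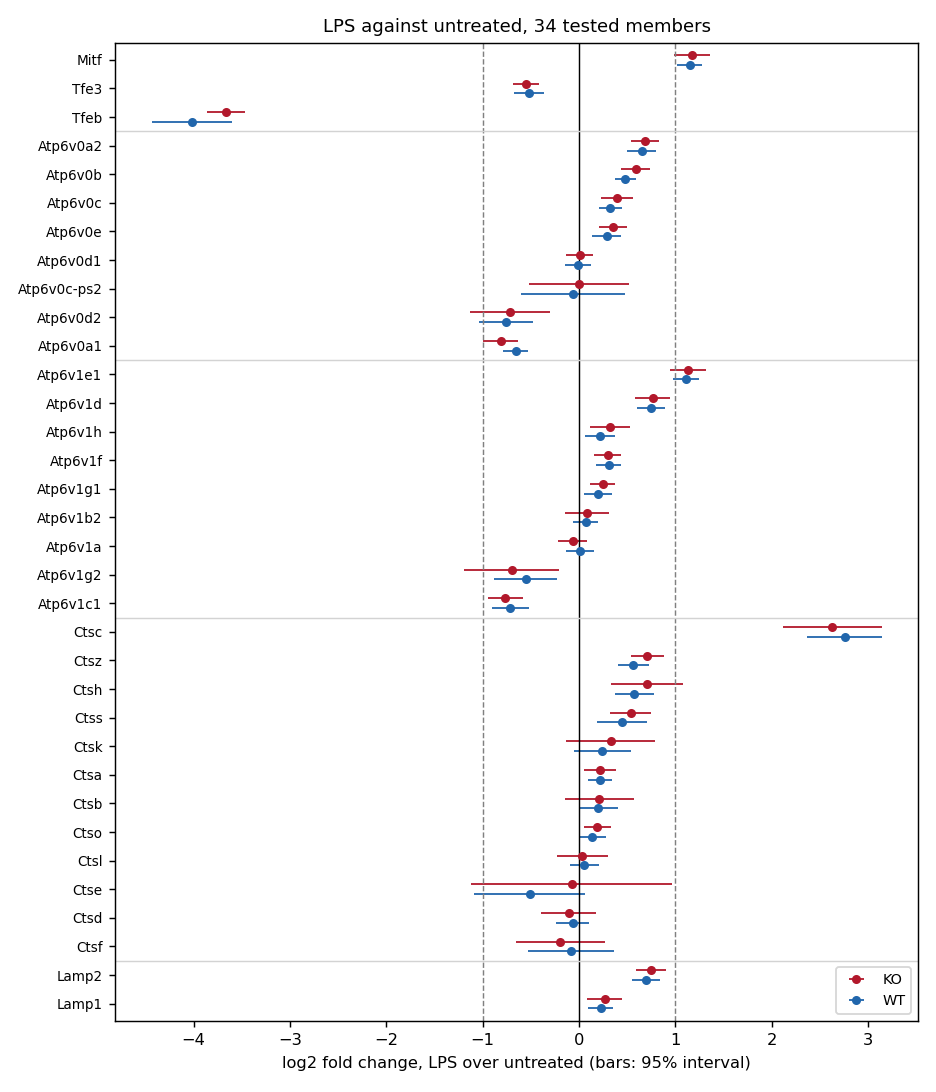
Log2 fold change of LPS-treated over untreated macrophages with its 95% interval for the 34 tested genes, in KO and WT macrophages, on the scale of the deposited normalized counts. Tfeb stands far below 0 and Ctsc far above it in both genotypes, and most other genes lie within 1 log2 unit of 0, where 12 in each genotype pass in one direction or the other depending on the scaling.

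How the libraries are scaled decides the direction of many of the smaller changes, since 1 read is worth 1.21 to 1.41 normalized counts in LPS-treated and 0.66 to 0.855 in untreated libraries. Relative to the deposited scale, the median of all genes moved by -0.68 in KO and -0.72 in WT macrophages with scaling to total reads, by -0.32 in both with the upper quartile and by -0.14 and -0.13 with quantile normalization. With all 4 scalings, 3 genes passed as higher (Atp6v1e1, Ctsc and Mitf) and 5 as lower (Atp6v0a1, Atp6v0d2, Atp6v1c1, Tfe3 and Tfeb), and these were the same in both genotypes. Another 12 genes in each genotype passed as higher under one scaling and as lower under another: Atp6v0b, Atp6v0c, Atp6v0e, Atp6v1f, Atp6v1g1, Atp6v1h, Ctsa, Ctss, Ctsz, Lamp1 and Lamp2 in both, Ctso in KO and Ctsk in WT macrophages. The remaining 14 did neither. Of the 34 fold changes, 24 were above 0 in KO and 23 in WT macrophages on the deposited scale, 8 and 4 with scaling to total reads, 14 and 11 with the upper quartile, and 10 and 9 with quantile normalization.

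**Figure D3:**
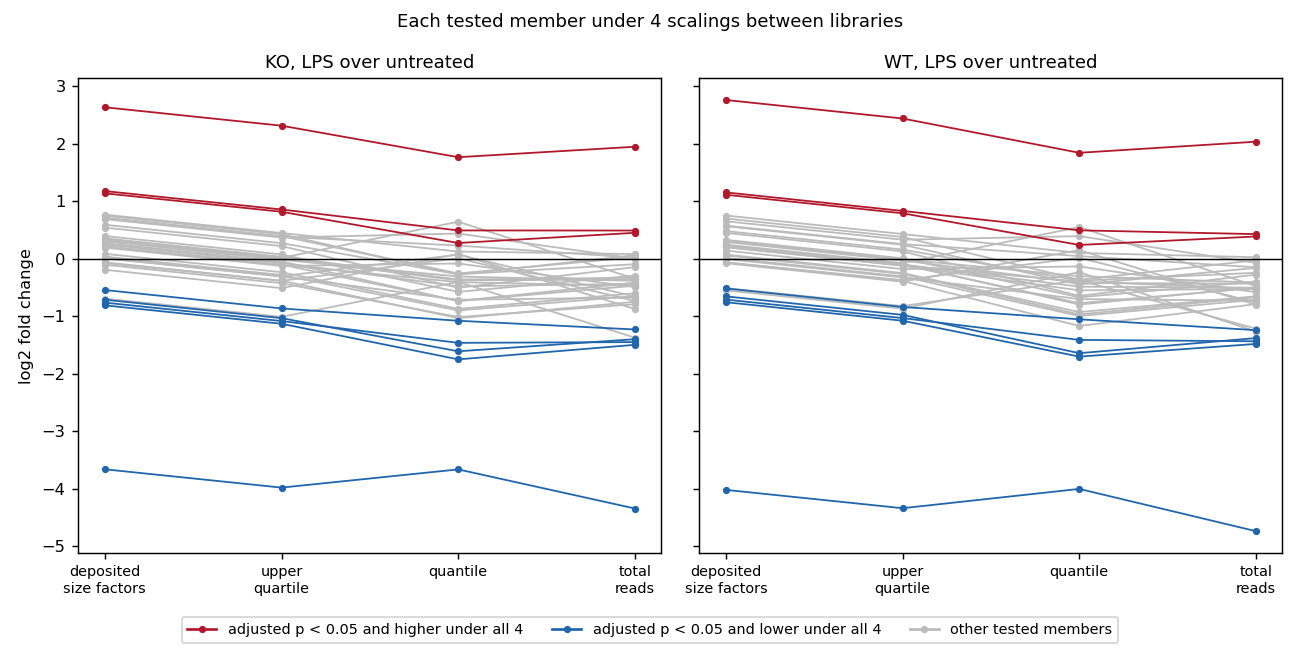
Log2 fold change of LPS-treated over untreated macrophages for the 34 tested genes under 4 scalings of the same reads, in KO and WT macrophages. Ctsc, Mitf and Atp6v1e1 stay above 0 and Tfeb, Tfe3, Atp6v0a1, Atp6v0d2 and Atp6v1c1 below it under all 4, while genes such as Lamp1 and Ctss lie on either side.

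In the V0 sector, the genes for alternative forms of 1 subunit moved apart. Subunit a anchors the pump to a compartment and forms the path of the protons. Atp6v0a1 had 8995, 10055 and 8888 normalized counts in LPS-treated KO libraries, against 15300, 17375 and 16407 in untreated ones, and 10149, 9873 and 9283 in LPS-treated WT libraries, against 15946, 15238 and 15017 in untreated ones. All LPS-treated libraries were below all untreated ones, with a log2 fold change of -0.81 (SE 0.08, adjusted p = 2.08e-05) in KO and -0.66 (SE 0.06, adjusted p = 4.76e-06) in WT macrophages. Atp6v0a2, its paralog known from endosomes and the Golgi, ranged over 1294 to 1336 in LPS-treated against 770.3 to 853.4 in untreated KO libraries and over 1269 to 1405 in LPS-treated against 816.5 to 893.4 in untreated WT libraries. Its log2 fold change on the deposited scale was 0.69 in KO and 0.65 in WT macrophages, but 0.00 and -0.08 with scaling to total reads. Within a library the ratio of Atp6v0a1 to Atp6v0a2 per kb was 7.04 to 7.72 in LPS-treated against 20.4 to 20.9 in untreated KO libraries, and 6.78 to 8.20 in LPS-treated against 18.3 to 18.9 in untreated WT libraries. The ratio of means was 2.83-fold in KO and 2.47-fold in WT macrophages, with untreated libraries higher. The gene for the a3 form, Tcirg1, is not named by the symbol rule and had a log2 fold change of 0.58 in KO and 0.28 in WT macrophages on the deposited scale, against -0.43 to 0.26 in KO and -0.75 to -0.04 in WT under the other 3 scalings.

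Subunit d couples V0 to the central stalk. Atp6v0d2, the form enriched in osteoclasts and some macrophages, had 5135, 7116 and 6733 normalized counts in LPS-treated KO libraries, against 7754, 12026 and 11680 in untreated ones. In WT macrophages it had 7166, 6597 and 5119 with LPS, against 11719, 10671 and 9377 without. The groups did not overlap, although replicate 1 of the untreated KO libraries was close to the LPS-treated range. The log2 fold change was -0.72 (adjusted p = 0.00661) in KO and -0.76 (adjusted p = 0.000409) in WT macrophages. The widely expressed form Atp6v0d1 had 3265 to 3446 in LPS-treated against 3191 to 3513 in untreated KO libraries and 3013 to 3315 in LPS-treated against 2985 to 3237 in untreated WT libraries, with overlapping groups and log2 fold changes of 0.01 and -0.01. It passed as lower under the other 3 scalings, with -0.72 to -0.31 in KO and -0.73 to -0.33 in WT macrophages. The ratio of Atp6v0d2 to Atp6v0d1 per kb was 1.04 to 1.42 in LPS-treated against 1.60 to 2.37 in untreated KO libraries, and 1.12 to 1.57 in LPS-treated against 1.96 to 2.59 in untreated WT libraries. Atp6v0b and Atp6v0c, whose products form the rotating ring, and Atp6v0e, a small subunit, had log2 fold changes of 0.59, 0.39 and 0.35 in KO and 0.48, 0.33 and 0.29 in WT macrophages on the deposited scale, each turning negative with quantile normalization.

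In the V1 sector, the genes of the catalytic core did not pass the test on the deposited scale, but were lower under other scalings. Atp6v1a, the subunit that binds and hydrolyses ATP, had 16369, 17164 and 17166 normalized counts in LPS-treated KO libraries, against 17606, 17981 and 17456 in untreated ones, and 18839, 18382 and 16619 in LPS-treated WT libraries, against 18112, 17773 and 17480 in untreated ones. The groups overlapped in WT and lay close to each other in KO macrophages, with log2 fold changes of -0.07 and 0.01 in KO and WT that did not pass (adjusted p = 0.391 and 0.884). Atp6v1b2, the B subunit of most tissues, had 14233, 16084 and 15854 in LPS-treated against 12668, 16107 and 14965 in untreated KO libraries, and 14993, 15120 and 16195 in LPS-treated against 15107, 14862 and 14157 in untreated WT libraries. KO and WT groups alike overlapped between conditions, and the log2 fold changes were 0.08 and 0.07. With quantile normalization Atp6v1a passed as lower, with -1.04 in KO and -0.999 in WT macrophages, as did Atp6v1b2 with -0.87 and -0.93, and both also passed as lower with scaling to total reads. Its paralog Atp6v1b1, known from the kidney, had no reads.

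Atp6v1e1, a subunit of the peripheral stalks, was the V1 gene that rose by over 2-fold. It had 7198, 7473 and 7874 normalized counts in LPS-treated KO libraries, against 3051, 3635 and 3607 in untreated ones, and 7950, 7866 and 7221 in LPS-treated WT libraries, against 3714, 3568 and 3391 in untreated ones. No untreated library came near the LPS-treated ones. The log2 fold change was 1.13 (SE 0.08, adjusted p = 2.75e-06) in KO and 1.11 (SE 0.06, adjusted p = 1.75e-07) in WT macrophages, and 0.27 and 0.24 with quantile normalization, the smallest of the 4 scalings. Its paralog Atp6v1e2, known from the testis, had 0 reads in all 12 libraries. Per kb, the ratio of Atp6v1e1 to Atp6v1a was 0.640 to 0.675 in LPS-treated against 0.255 to 0.304 in untreated KO libraries, and 0.621 to 0.639 in LPS-treated against 0.285 to 0.302 in untreated WT libraries.

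Atp6v1c1, which joins the stalks to the V0 sector and takes part in the reversible assembly of the pump, went down. It ranged over 2208 to 2605 normalized counts in LPS-treated against 3815 to 4184 in untreated KO libraries, and over 2148 to 2664 in LPS-treated against 3719 to 4167 in untreated WT libraries. Its log2 fold change was -0.77 (adjusted p = 2.87e-05) in KO and -0.71 (adjusted p = 4.33e-05) in WT macrophages. The ratio of Atp6v1c1 to Atp6v1a per kb was 0.139 to 0.164 in LPS-treated against 0.234 to 0.251 in untreated KO libraries, and 0.139 to 0.153 in LPS-treated against 0.230 to 0.248 in untreated WT libraries. Atp6v1d, a subunit of the rotor, had log2 fold changes of 0.76 and 0.75 in KO and WT macrophages on the deposited scale. Atp6v1g2, the G subunit form known from neurons, was at 52.3 to 126 normalized counts and had log2 fold changes of -0.70 and -0.55, while Atp6v1f, Atp6v1g1 and Atp6v1h were between 0.20 and 0.32 in both genotypes, on the deposited scale and negative with scaling to total reads.

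**Figure D4:**
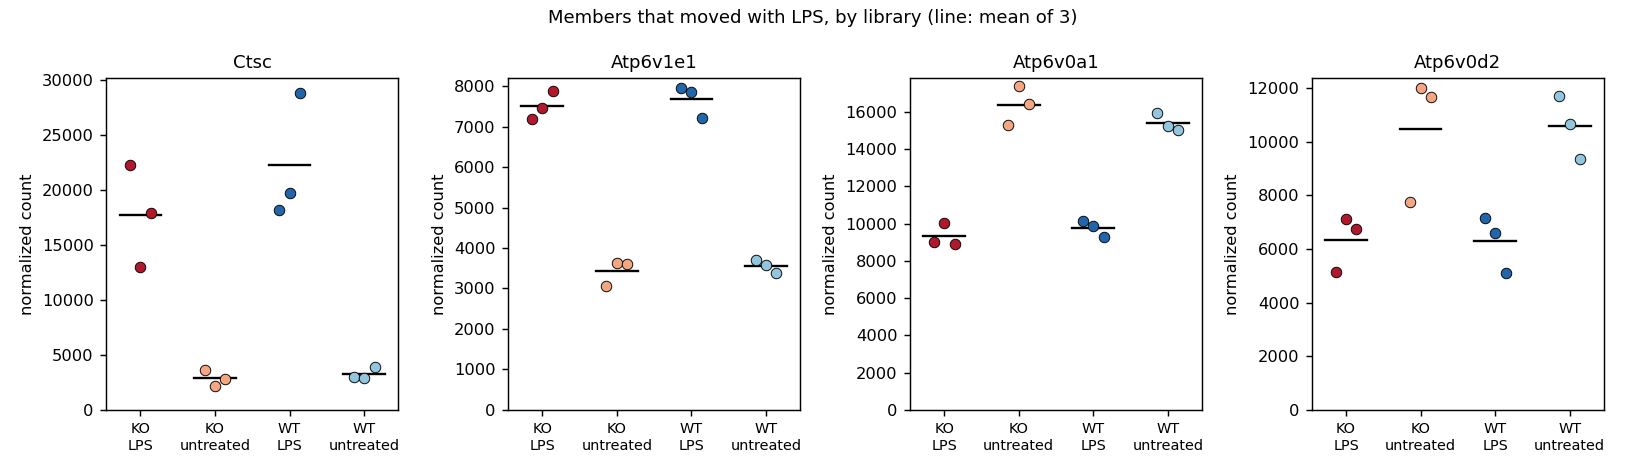
Normalized counts of Ctsc, Atp6v1e1, Atp6v0a1 and Atp6v0d2 (left to right) in each of the 12 libraries, by group, with a line at the mean of the 3 libraries. Ctsc and Atp6v1e1 are higher and Atp6v0a1 and Atp6v0d2 lower in all 6 LPS-treated than in all 6 untreated libraries, on the deposited scale.

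Among the cathepsins, Ctsc had by far the largest change. It encodes the dipeptidyl peptidase that activates the serine proteases of granulocytes and cytotoxic lymphocytes. Its normalized counts were 22253, 12955 and 17892 in LPS-treated KO libraries, against 3632, 2152 and 2774 in untreated ones. In WT macrophages they were 18193, 19685 and 28773 with LPS, against 2959, 2889 and 3894 without. The lowest LPS-treated library was over 3 times the highest untreated one, and within each genotype the library number that was highest with LPS was also highest without it, replicate 1 in KO and replicate 3 in WT. The log2 fold change was 2.63 (SE 0.22, adjusted p = 8.40e-06) in KO and 2.76 (SE 0.17, adjusted p = 4.84e-07) in WT macrophages. Under the other scalings it was 1.76 to 2.31 in KO and 1.84 to 2.44 in WT macrophages. The granulocyte markers summed to 424.9 to 1257 in LPS-treated against 282.2 to 612.3 in untreated KO libraries and to 326.5 to 727.5 in LPS-treated against 263.7 to 631.7 in untreated WT libraries, and their part in the value of Ctsc was not tested. Per kb, the ratio of Ctsc to Ctsb was 0.0428 to 0.0672 in LPS-treated against 0.00795 to 0.0131 in untreated KO libraries, and 0.0522 to 0.0832 in LPS-treated against 0.00965 to 0.0129 in untreated WT libraries.

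The 3 cathepsins with the highest normalized counts did not pass the test on the deposited scale. Ctsb had 344931, 315426 and 345187 normalized counts in LPS-treated against 288733, 281970 and 296603 in untreated KO libraries, and 363022, 361266 and 360263 in LPS-treated against 315708, 311940 and 315689 in untreated WT libraries. Its LPS-treated libraries were above its untreated ones in each genotype, with log2 fold changes of 0.21 and 0.20 and adjusted p = 0.256 in KO and 0.0716 in WT macrophages. Ctsb did pass with the replicate block, at adjusted p = 0.0337 in KO and 0.00901 in WT macrophages, but passed as lower with scaling to total reads, with -0.47 and -0.52. Ctsd had 93797, 104579 and 105447 in LPS-treated against 98275, 118413 and 111093 in untreated KO libraries, and 115083, 117020 and 109047 in LPS-treated against 121055, 121230 and 114903 in untreated WT libraries. The groups of Ctsd overlapped, with log2 fold changes of -0.11 and -0.07. Ctsl, a cysteine endopeptidase, had 59399, 67353 and 70275 in LPS-treated against 57310, 67266 and 67796 in untreated KO libraries, and 63904, 66307 and 61220 in LPS-treated against 61468, 63094 and 59713 in untreated WT libraries. These groups overlapped as well, and the log2 fold changes were 0.04 and 0.05. With quantile normalization both passed as lower, Ctsd with -1.02 in KO and -1.17 in WT and Ctsl with -0.90 and -0.97.

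Of the other cathepsins, Ctsz, Ctsh and Ctss had log2 fold changes of 0.71, 0.70 and 0.54 in KO and 0.56, 0.57 and 0.45 in WT macrophages, all past an adjusted p of 0.05 on the deposited scale. Ctsz and Ctss turned negative with quantile normalization in both genotypes, at -0.26 and -0.51 in KO and -0.45 and -0.65 in WT. Ctsh, an aminopeptidase, kept a positive value there, 0.23 and 0.04, and was at 0.02 and -0.15 with scaling to total reads. Ctsa, the carboxypeptidase that protects beta-galactosidase and neuraminidase, had 0.21 in both genotypes, also with a change of direction. Ctse, Ctsf and Ctsk were at 18.6 to 334 normalized counts and did not pass in either genotype on the deposited scale, although with the replicate block Ctsk passed as higher in KO (adjusted p = 0.0439, limma) and Ctse as lower in WT macrophages (adjusted p = 0.0480, limma), Ctsk being the collagen-degrading cathepsin of osteoclasts.

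Both tested Lamp genes were higher on the deposited scale. Lamp2, which also serves chaperone-mediated autophagy, had 22171, 20340 and 21533 normalized counts in LPS-treated against 13097, 12564 and 12536 in untreated KO libraries, and 20561, 20021 and 22566 in LPS-treated against 13261, 12373 and 13298 in untreated WT libraries. Lamp1 had 38445, 35154 and 37892 in LPS-treated against 30397, 31175 and 30949 in untreated KO libraries, and 36861, 35551 and 35427 in LPS-treated against 31248, 30286 and 30730 in untreated WT libraries. Neither gene's conditions overlapped on that scale. The log2 fold changes of Lamp2 were 0.74 (adjusted p = 1.42e-05) and 0.70 (adjusted p = 7.87e-06) in KO and WT macrophages, and -0.28 and -0.37 with quantile normalization. Those of Lamp1 were 0.27 and 0.22, and -0.74 and -0.80 with quantile normalization. From the deposited values, the ratio of Lamp2 to Lamp1 per kb was 0.159 to 0.162 in LPS-treated against 0.113 to 0.121 in untreated KO libraries, and 0.156 to 0.178 in LPS-treated against 0.114 to 0.121 in untreated WT libraries.

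The genes whose promoters carried an E-box had medians near 0 on the deposited scale. The 5 genes with the longer form had a median log2 fold change of 0.01 in both genotypes, with a range of -0.11 to 0.35 in KO and -0.07 to 0.29 in WT macrophages. That median depended on the scale. All 5 passed as lower with quantile normalization, at -1.04 to -0.36 in KO and -1.17 to -0.42 in WT macrophages. With scaling to total reads they also did, at -0.79 to -0.33 in KO and -0.79 to -0.44 in WT. The median of all genes moved lower under these scalings as well. The 9 genes with the core had a median of 0.04 in KO and 0.05 in WT, and 4 of them were higher and 0 lower at an adjusted p under 0.05 in each genotype by limma on the deposited scale, and all 4 (Atp6v0b, Atp6v0e, Ctsa and Lamp1) passed as lower under another scaling. The 15 genes without either motif had a median of 0.39 in KO and 0.33 in WT, with 10 higher and 4 lower in KO and 9 higher and 4 lower in WT macrophages, and they include Tfeb, Mitf, Ctsc and Atp6v1e1. The sets are small and were not tested against each other. Another 10 tested genes, Ctsb, Ctsh and Atp6v0d2 among them, had no matched promoter.

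Genes that act with these proteins were counted in the same way, to be read against the 17.3% higher and 16.6% lower of all genes in KO and the 17.1% and 16.9% in WT macrophages. Of 12 tested V-ATPase accessory and assembly factors, 2 were called higher and 4 lower in KO and 1 higher and 4 lower in WT macrophages. Among them were Ncoa7, a factor that binds V1, at a log2 fold change of 2.46 in KO and 2.30 in WT, and the assembly factor Ccdc115 at -1.24 and -1.46. Of 10 cathepsin inhibitors and processing enzymes, 2 were called higher and 0 lower in both genotypes by limma, also without the fold threshold 0 lower. These were Serpina3g, a serpin that inhibits cysteine cathepsins, at 10.33 and 10.45, and Cst7, the cystatin that inhibits Ctsc, at 5.92 and 6.31. Cst7 and Ctsc were both called higher after LPS, and a link between the 2 genes was not tested. A further list held genes of the Rag, Ragulator and folliculin complexes, which control where Tfeb lies in the cell. It also held Mtor, Rptor, Rheb, Tsc1 and Tsc2, with 17 genes in all. Of these 17, 0 were called higher and 4 lower in KO and 0 higher and 5 lower in WT macrophages. Folliculin (Flcn) had log2 fold changes of -2.48 and -2.57, and Rragd of -2.09 and -2.52. Without a fold threshold 4 of these 17 were higher and 7 lower in KO, and 3 higher and 9 lower in WT. Of 33 other lysosomal hydrolases, 1 was called higher, the acid phosphatase Acp5 at 3.39 and 3.32, and 2 lower in each genotype, the sulfatase Sgsh at -2.49 and -2.43 and the phospholipase Pla2g15 at -1.31 and -1.10. Of 23 other lysosomal membrane proteins and activators, 3 were called higher and 2 lower in each, with the cystine exporter Ctns at -2.37 and -2.59 and Cln3 at 1.78 and 1.85. Of 24 autophagy genes, 4 were called higher and 5 lower in KO and 4 higher and 6 lower in WT macrophages. In KO macrophages the shares of the hydrolases (3.03% higher and 6.06% lower) and of the membrane proteins (13.0% and 8.70%) were below those of all genes, and those of the autophagy genes (16.7% and 20.8%) near them. The named genes of these lists kept their direction and their adjusted p under 0.05 with the other 3 scalings. For instance, Flcn had -3.17 to -2.72 in KO and -3.29 to -2.84 in WT. Ncoa7 had 1.77 to 2.14 in KO and 1.58 to 1.98 in WT. The counts, however, shifted towards lower. With scaling to total reads, 8 of the 17 genes of the list with Flcn and 11 of the 24 autophagy genes were lower in KO macrophages.

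The second question was whether these genes differed between KO and WT macrophages. In this design the loss of Rasgef1b cannot be told apart from the origin of the mice or the presence of Cre. None of the 34 genes was called between KO and WT macrophages by limma, edgeR or DESeq2, without LPS or with it, also by adjusted p alone. The background was low as well: 0.0963% of 12461 genes were called higher and 0.0963% lower in untreated macrophages, or 0.257% and 0.281% by adjusted p alone. With LPS, 0.168% of 12504 genes passed as higher and 0.064% as lower, or 0.504% and 0.312% by adjusted p alone. At an unadjusted p under 0.05 there were 2 of the 34 genes in each condition, Tfeb higher and Ctsk lower in KO, against 10.8% of all genes without LPS and 10.6% with it, so the count is below the background. The values of Tfeb given above did not overlap between untreated KO and untreated WT libraries, at 1005 to 1129 against 959.8 to 967.7, a log2 fold change of 0.16 (adjusted p = 0.357, limma). With LPS they were 83.0 to 85.0 in KO against 47.8 to 82.1 in WT libraries, a log2 fold change of 0.52 (adjusted p = 0.440, limma), with replicate 3 of WT next to the KO range. Ctsk had 85.4 to 142 normalized counts in untreated KO against 139 to 182 in untreated WT libraries, which overlapped, and 116 to 158 in LPS-treated KO against 172 to 188 in LPS-treated WT libraries, which did not. Its log2 fold changes were -0.48 (adjusted p = 0.408, limma) and -0.39 (adjusted p = 0.342, limma).

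Of the other lists, 1 gene was called between the genotypes in both conditions. Serpinb6b, a serpin of the inhibitor list, had a log2 fold change of KO over WT of 1.20 in untreated (adjusted p = 0.0162, limma) and 1.20 in LPS-treated macrophages (adjusted p = 0.00552, limma).

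The intervals of these differences say how large a difference between KO and WT macrophages could have been missed. The 95% interval of the log2 fold change lay within 2-fold in either direction for 33 of the 34 genes in untreated macrophages, all but Ctse, and for 33 in LPS-treated ones, all but Tfeb. It lay within 1.5-fold for 28 genes in each condition. The 12 cathepsins had a median log2 fold change of KO over WT of -0.12 without LPS, with 11 of 12 below 0. With LPS it was -0.13, with 9 of 12 below 0. All genes had medians of -0.01 and -0.00, with 6655 of 12461 below 0 without LPS and 6305 of 12504 with it. Under the other 3 scalings the cathepsin median was -0.19 to -0.11 without LPS and -0.11 to -0.05 with it. Of the 12, Ctsk alone had an unadjusted p under 0.05 by limma, in both conditions. Among all 34 genes, 1 higher and 2 lower in KO did not overlap between the genotypes without LPS, and 3 higher and 3 lower with LPS. That share was not counted over all genes, so these counts do not say whether the 34 genes differ from other genes. Ctsb was among them in both conditions. It had 281970 to 296603 normalized counts in untreated KO against 311940 to 315708 in untreated WT libraries. With LPS it had 315426 to 345187 in KO against 360263 to 363022 in WT libraries. These differences did not pass by limma, with an adjusted p of 0.814 without LPS and 0.821 with it. The summed macrophage markers were also lower in LPS-treated KO than in LPS-treated WT libraries, as given above, and their part in the cathepsin values was not tested. The V0 and V1 genes had medians of -0.01 and -0.03 without LPS and 0.04 and -0.03 with it.

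**Figure D5:**
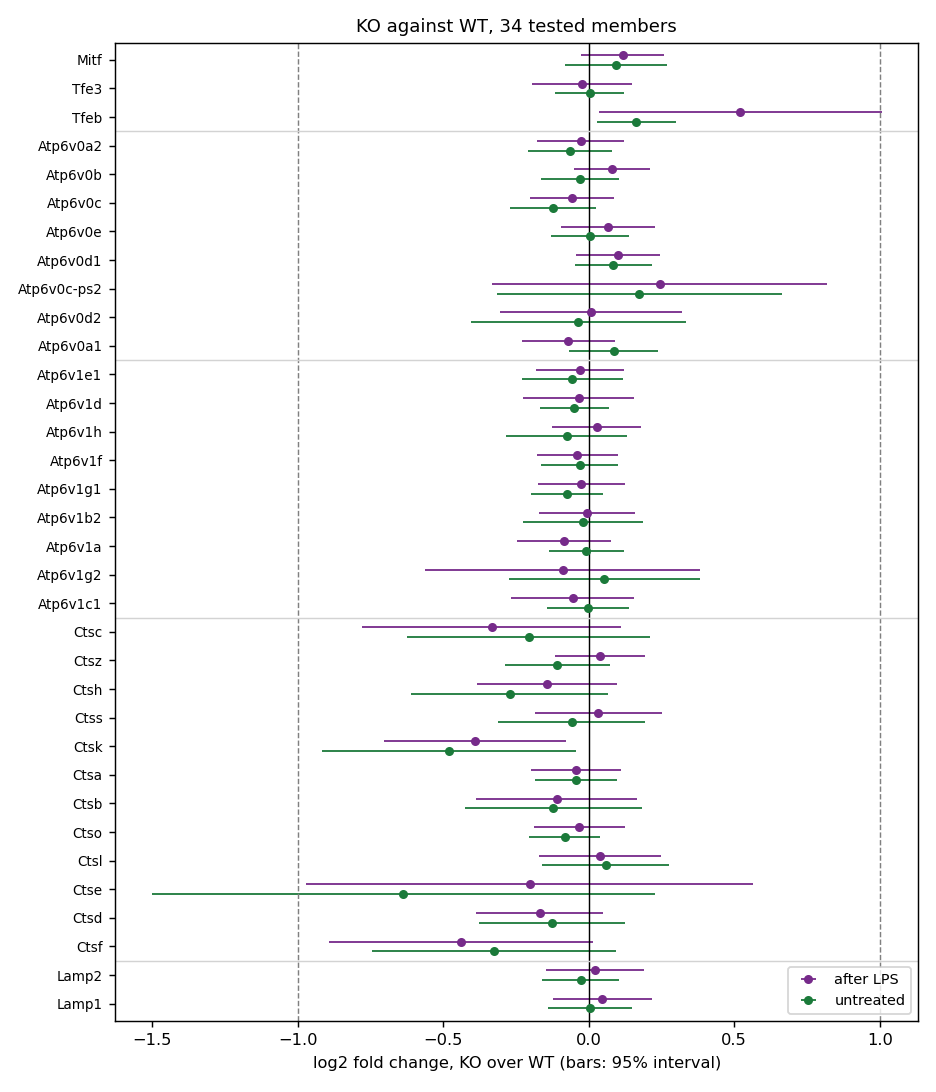
Log2 fold change of KO over WT macrophages with its 95% interval for the 34 tested genes, in untreated and in LPS-treated macrophages. Most intervals include 0, those of Tfeb lie above it and those of Ctsk below it, and none passes after adjustment over all genes.

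The response to LPS itself was compared between the genotypes by the interaction of genotype and treatment over all 12 libraries. None of the 34 genes passed in limma, edgeR or DESeq2, none had an unadjusted p under 0.05 in limma, and of 12711 genes tested 0.00787% passed and 4.22% had such an unadjusted p. The interaction of Tfeb was 0.36 (SE 0.22, adjusted p = 0.999, limma), that of Ctsc -0.13 and that of Ctsk 0.09. The 95% interval lay within 2-fold for 33 of 34 genes, all but Ctse, and within 1.5-fold for 27.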

How the data were processed

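The authors deposited normalized counts (signal): base calls were converted with bcl2fastq (2.17), and reads were trimmed with Trimmomatic (0.39), aligned to GRCm38 with STAR (2.7.4a), counted with featureCounts of Subread (2.0.1) and divided by DESeq2 (1.32.0) size factors in R (4.1.2), per the labels. Division by the value of 1 read gave whole reads for 100% of the values, within a tolerance of 1e-06. Exons came from GENCODE vM21, and promoters and their coordinates from RefSeq.

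In R (4.3.3), limma (3.58.1) with a variance trend was fitted to log2(normalized count + 1) of the 6 libraries of 2 groups, or of all 12 for the interaction, for genes with a mean of at least 10, with Benjamini-Hochberg adjustment. Genes were called at an adjusted p under 0.05 with a change of at least 2-fold, and the interaction at the adjusted p alone. Fold changes on this scale understate the change of low genes. The fits were tested on simulated data. On the recovered reads, edgeR (4.0.16) called 2187 genes higher and 2176 lower after LPS in KO and 2126 and 2226 in WT macrophages, and DESeq2 (1.42.0) 2228 and 2087 in KO and 2181 and 2105 in WT.

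Whether the replicate numbers pair LPS-treated with untreated libraries was judged from deviations from the group means. For libraries of a genotype with the same number, r was 0.29, 0.28 and 0.17 in KO and 0.33, 0.19 and 0.24 in WT macrophages. With another number, r was at most 0.0107. Between LPS-treated KO and WT libraries, r reached 0.268. The numbers may thus pair libraries within a genotype, while the paper describes its comparisons as unpaired. The members, the other gene lists and the tests were chosen with earlier results of these data known. Values are given library by library for called members, the factors, the Lamp genes, paralogs of called subunits and the 3 highest cathepsins and pump subunits by mean normalized count; Atp6v0d2 was added after its values were seen, as were the ranges of other members. Of other lists, some called genes are named and others are not. Alternatives were other pseudocounts, filters, scalings, variance models and tools, a replicate block and leaving out each library. Counts of 0 allow for 3 reads, which covers counting error only.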

Additional observations from a re-analysis of the deposited data

How the results depend on the processing

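Between the genotypes and for the interaction, the count of members called stayed at 0 under all alternatives run. After LPS, the counts of 3 members called higher and 1 lower in each genotype were also obtained with pseudocounts of 0.5 and 5, without the filter, with a minimum mean of 50, all 12 libraries in one fit, other variance models, edgeR, DESeq2 and without any 1 library (3 and 1 each time), and they were the same genes. With the replicate block they were again 3 and 1 in KO and in WT macrophages, and the block changed no call of a member by the 2-fold rule; by adjusted p alone it added Ctsb and Ctsk in KO and Ctsb and Ctse in WT macrophages. Without the fold threshold 18 members were higher and 6 lower in KO and 17 and 6 in WT macrophages. Fewer passed as higher and more as lower under the other scalings: 1 and 5 in KO and 1 and 3 in WT with the upper quartile, 1 and 7 in KO and 1 and 6 in WT with quantile normalization, 1 and 6 in KO and 1 and 7 in WT with scaling to total reads, and 1 and 6 in KO and 1 and 7 in WT with the replicate block and scaling to total reads. Over all genes, scaling to total reads gave 1446 higher and 4621 lower calls in KO and 1379 and 4783 in WT macrophages, and the upper quartile 1795 and 3032 in KO and 1730 and 3025 in WT, against 2201 and 2108 in KO and 2158 and 2136 in WT on the deposited scale. By adjusted p alone, leaving out 1 library kept 20 to 23 of the 24 members in KO macrophages. Which scaling is nearest to RNA per cell was not tested.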
